A study of Homo sapiens with 6 samples.

Results

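The 50 genes described here are antiviral genes that cells switch on in answer to interferon. They were chosen by name, as the rows of the deposited expression table that carry these symbols, and all 50 were found among 58735 named genes. The measurements come from RNA-seq of 8505C, an established cell line from a human anaplastic thyroid carcinoma. One group carried a short hairpin RNA against HHEX, a homeobox transcription factor of thyroid development, and has the genotype label HHEX KD. The other carried a control hairpin and has the genotype label wild-type. Each group held 3 libraries, which the study calls biological replicates, and the labels give all 6 as untreated, so no interferon was added to any of them. The columns of the table name the libraries KD1 to KD3 and control1 to control3. All libraries come from 1 line, and the hairpin sequences and the way they were delivered were not used here. The titles number the 3 libraries of each group rep1_1, rep1_2 and rep2_1, so that 2 of the 3 share their first number and may belong to 1 replicate, and the columns do not show which. No label says that the libraries came from separate cultures, so p-values measure only the spread between these libraries, which may be technical.

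Type I and type III interferons are secreted when a cell senses foreign nucleic acid. They bind receptors whose JAK kinases phosphorylate STAT factors such as STAT2, which acts with IRF9 in the complex ISGF3 and switches on genes that carry an interferon-stimulated response element in their promoters. The products block virus entry, RNA synthesis, translation or release, and some of them, such as the RNA sensors and IRF7, feed back on the making of interferon. Many tumour lines hold a low level of this programme without added interferon.

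HHEX was measured first, since it checks the labels. It lay at 14.8 CPM (read counts scaled to library size, exact 95% Poisson interval 12.9 to 16.9), 7.94 CPM (6.53 to 9.56) and 7.13 CPM (5.81 to 8.66) in KD1, KD2 and KD3, against 12.7, 12.8 and 12 CPM in control1, control2 and control3. By value, the library labelled KD1 thus lies above every control library in the gene its hairpin targets, against its label. KD2 and KD3 lie below the controls. The control intervals, 10.8 to 14.7, 11.1 to 14.8 and 10.3 to 13.9 CPM, overlap that of KD1 but not those of KD2 and KD3. KD1 is thus not reduced, and whether it lies above the controls by more than counting error was not tested. The log2 fold change of HHEX was −0.33 (SE 0.28), which edgeR's quasi-likelihood test did not call (adjusted p = 0.527 by Benjamini and Hochberg). An exact permutation test over the 6 libraries, two-sided, gave p = 0.4, where the smallest p it allows is 0.1. Library totals lay between 13333245 and 15144176 counts. By the Pearson correlation of log2 CPM over 14280 tested genes, KD1 and KD2 lay close to each other (r = 0.989), whereas KD3 had r of 0.955 and 0.956 with them and 0.971 to 0.977 with the controls. KD3 therefore stands apart from the libraries of its own label, and KD1 and KD2 may be the pair with a shared first number. Whether a library was mislabelled or mixed was not tested, so every group difference below holds by label alone. Results are also given without KD1 and without KD3. Over all genes tested, edgeR called 26 at an adjusted p under 0.05, and DESeq2 862. Without KD1 edgeR called 0, with 1789 genes at an unadjusted p under 0.05, and without KD3, where KD1 and KD2 alone stand for the group, it called 4675. Thyroglobulin, the TSH receptor and the iodide transporter (TG, TSHR, SLC5A5) were at or near 0 in all 6 libraries, so that these defining genes of the labelled tissue, thyroid, are as good as absent, while the thyroid factor NKX2-1 lay between 18 and 50.5 CPM. Leukocyte markers summed to 4.44 to 5.27 CPM in the HHEX shRNA libraries and 3.89 to 5.32 CPM in the control libraries, and 5 of the 12, MS4A1, LYZ, HLA-DRA and CLEC4C among them, were at 0 in all libraries. Fibroblast and endothelial markers summed to 6.92 to 16.7 CPM against 16.7 to 18.6 CPM, with KD3 the lowest.

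Of the 50 genes, 48 had enough reads to be tested, and 4 of them were lower in the HHEX shRNA libraries at an adjusted p under 0.05 by edgeR. They were TRIM22, RSAD2, BST2 and IFI27, and no member was called higher, where edgeR called 0.182% of all genes tested, 0.077% as lower and 0.105% as higher. The log2 fold change was negative for 43 of the 48 and positive for 5, namely IFIT5, OAS3, SAMD9, PARP9 and DTX3L. Their median was −0.56, beside a median of −0.01 over all genes tested, of which 51.4% were negative. In 28 of the 48 every HHEX shRNA library lay below every control library, and in 0 above, where 13.3% and 11.6% of all genes tested did so. An unadjusted p under 0.05 was reached by 24 members, beside 20.6% of all genes tested. Without KD1, whose HHEX level goes against its label, edgeR called 0 of 49 members (0.0% of all genes tested), with 24 of them at an unadjusted p under 0.05 (12.1% of all genes) and a median log2 fold change of −0.58. Without KD3, where the group is KD1 and KD2 and may be 1 replicate, edgeR called 25 of 49 members (31.6% of all genes tested), 23 as lower (15.1%) and 2 as higher (16.5%), with a median of −0.43. Leaving out KD2, control2 or control3 also left 0 members called, while 1625, 1947 and 1806 genes of the table had an unadjusted p under 0.05, and leaving out control1 left ISG15 alone. DESeq2 on all 6 libraries called 17 members as lower and 0 as higher, where it called 6.04% of all genes tested, 2.86% as lower and 3.18% as higher. In bulk RNA, fewer cells that express a gene and less RNA per cell cannot be told apart.

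**Figure D1:**
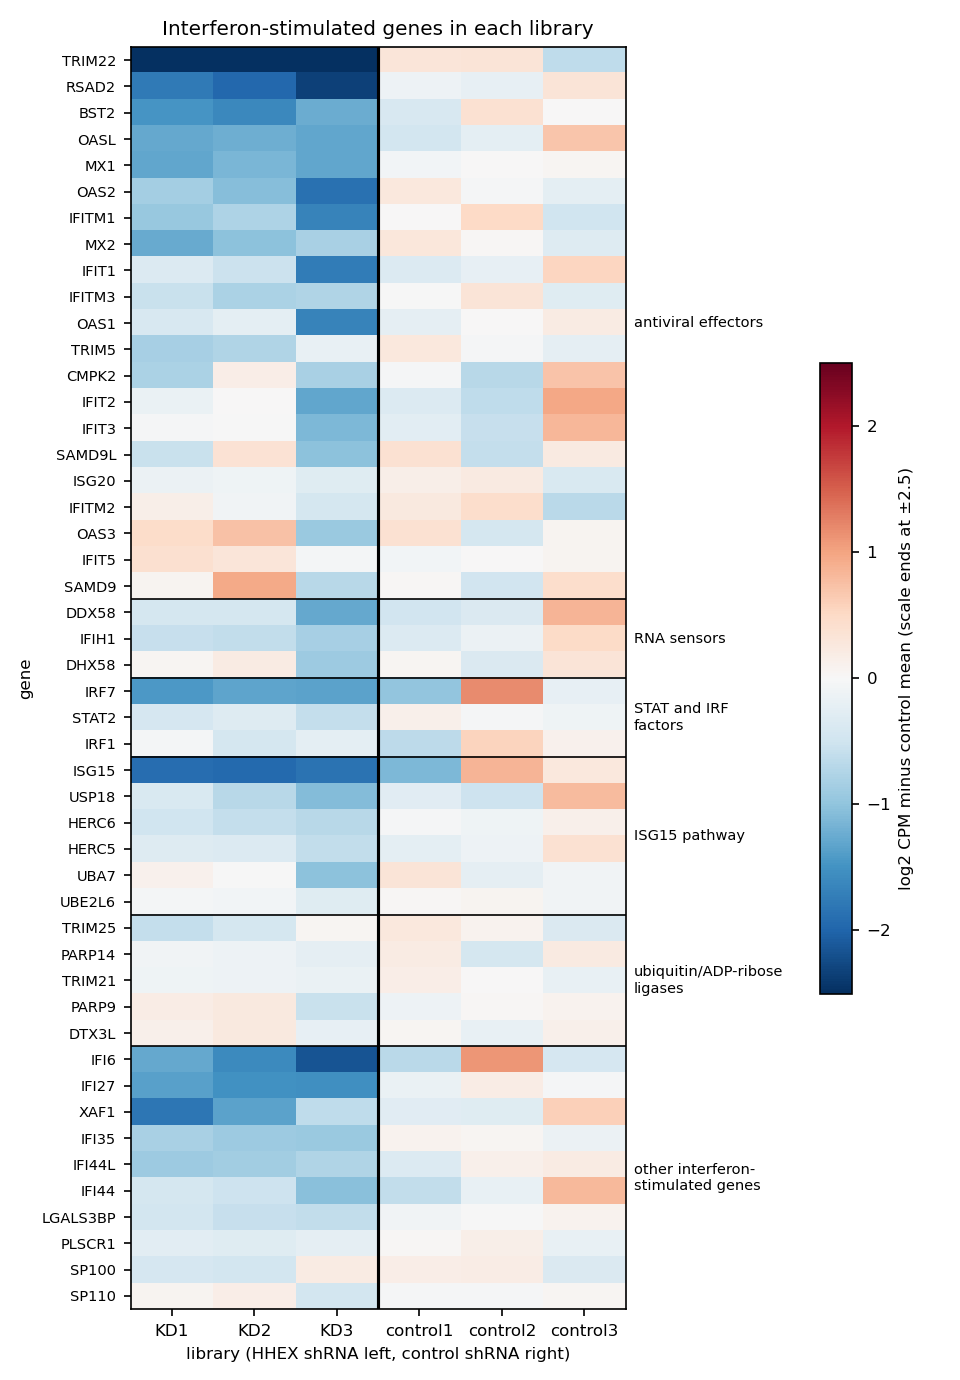
Each row is one of 48 tested genes and each column a library, HHEX shRNA left and control right. Colour gives log2 CPM minus the mean of the 3 controls (for a control library, minus the mean of the other 2), blue for lower and red for higher, with the colour scale ending at ±2.5. The median over the genes runs from −0.82 in KD3 to −0.44 in KD1, and from −0.03 in control1 to 0.08 in control3.

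The promoters of 6 members are shown as examples. RSAD2, BST2 and IFI27 were called lower, and ISG15 lay next to the threshold. IFIT1 had its lowest value in KD3, and OAS3 had a positive log2 fold change. Each line gives the 200 bases before a RefSeq start site on GRCh38.p14, 5′ to 3′ on the strand of the gene, and capitals mark matches, on either strand, to a pair of GAAA blocks set 2 bases apart, the core letters of the interferon-stimulated response element.
RSAD2, chr2:6877577-6877776, plus strand: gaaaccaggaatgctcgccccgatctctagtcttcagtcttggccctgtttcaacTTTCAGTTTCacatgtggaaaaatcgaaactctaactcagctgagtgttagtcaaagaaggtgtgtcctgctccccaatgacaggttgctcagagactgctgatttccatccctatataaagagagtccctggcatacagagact
BST2, chr19:17405631-17405830, minus strand: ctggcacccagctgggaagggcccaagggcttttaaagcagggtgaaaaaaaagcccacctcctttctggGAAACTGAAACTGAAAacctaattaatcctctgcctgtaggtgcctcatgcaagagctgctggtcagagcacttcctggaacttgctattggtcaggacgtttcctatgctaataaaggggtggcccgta
IFI27, chr14:94110536-94110735, plus strand: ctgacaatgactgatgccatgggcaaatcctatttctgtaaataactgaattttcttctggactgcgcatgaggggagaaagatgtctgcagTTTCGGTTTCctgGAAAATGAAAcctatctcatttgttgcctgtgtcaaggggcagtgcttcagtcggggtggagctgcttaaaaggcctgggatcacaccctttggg
ISG15, chr1:1013297-1013496, plus strand: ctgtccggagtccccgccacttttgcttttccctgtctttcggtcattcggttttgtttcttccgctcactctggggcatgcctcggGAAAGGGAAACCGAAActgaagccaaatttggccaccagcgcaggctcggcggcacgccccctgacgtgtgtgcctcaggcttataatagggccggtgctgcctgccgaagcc
IFIT1, chr10:89392423-89392622, plus strand: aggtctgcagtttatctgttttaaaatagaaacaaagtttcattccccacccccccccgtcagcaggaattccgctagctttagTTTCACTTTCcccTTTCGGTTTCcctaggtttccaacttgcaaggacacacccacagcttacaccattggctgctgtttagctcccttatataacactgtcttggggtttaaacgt
OAS3, chr12:112938274-112938473, plus strand: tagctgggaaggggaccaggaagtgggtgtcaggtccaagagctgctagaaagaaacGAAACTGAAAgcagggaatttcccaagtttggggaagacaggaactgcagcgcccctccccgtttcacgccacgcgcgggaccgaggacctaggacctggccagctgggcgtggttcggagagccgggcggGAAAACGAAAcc
RSAD2 holds 1 match, at position −145 from the start, and the other 5 hold 2 each, which overlap in BST2 and ISG15 and so appear as 1 run of capitals. In IFI27 the first match lies at −108 and in IFIT1 at −116. Of the 50 members, 40 were found in the RefSeq promoter table, DDX58 under its newer symbol RIGI. In windows of 250 bases before to 50 bases after the start, searched on both strands, 26 of the 40 held such a pair, which is 65.0% (exact 95% interval 48.3 to 79.4), beside 4.38% of 27305 genes with a promoter in the table. The letters TTCNNNGAA, the gamma-activated site that STAT dimers bind, were found in 12 of the 40 (30.0%) and in 9.38% of all genes. A TTCNNNGAA match can share bases with a match to the GAAA pair, as at −101 in IFI27. A gene with several start sites counts once if any of its windows holds the letters, and 12 members have several. Of the 25 tested members with a GAAA pair, 20 had a negative log2 fold change, with a median of −0.56 over the 25. Of the 13 tested members without one, all 13 did, with a median of −0.44. This difference was not tested. Members missing from the promoter table, IRF7, OASL and TRIM22 among them, are in neither set, and TRIM22 has the lowest log2 fold change of the tested members. All 5 members with a positive log2 fold change, IFIT5, OAS3, SAMD9, PARP9 and DTX3L, hold a match. So do all 6 members shown. TRIM22, also called lower, was not among the 40 members in the promoter table, so its promoter was not searched. A match describes the letters and not a bound site.

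The direct antiviral effectors are the largest group, with 21 members, all tested. Of these, 3 were called lower and 0 higher, beside 0.077% and 0.105% of all genes tested. The log2 fold change was negative in 18, beside 51.4% of all genes. In 12, every HHEX shRNA library lay below every control library, beside 13.3% of all genes. Their median log2 fold change was −0.66. TRIM22, a ubiquitin ligase of the TRIM family that restricts retroviruses and influenza virus, had 0.270, 0.0716 and 0.494 CPM in KD1, KD2 and KD3, against 4.49, 4.52 and 2.87 CPM in control1, control2 and control3. These are 4, 1 and 7 counts against 60, 68 and 44 counts, so that the gene was nearly silent in each HHEX shRNA library. It fell by 3.78 on the log2 scale (SE 0.54, 95% interval −5.01 to −2.56, edgeR adjusted p = 0.045), the lowest fold change of the 48, and its low counts leave the size uncertain. It did not pass with limma voom (adjusted p = 0.0701) or without robust estimation (edgeR adjusted p = 0.0543).

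RSAD2, or viperin, makes a chain-terminating nucleotide that stops viral RNA polymerases. Listed in the same library order, its level was 1.82, 1.57 and 1.20 CPM in the HHEX shRNA libraries and 6.21, 5.98 and 7.63 CPM in the control libraries. The 3 HHEX shRNA values lie close together and far below the lowest control. They rest on 27, 22 and 17 counts, against 83, 90 and 117 counts in the controls. RSAD2 fell by 2.10 on the log2 scale (SE 0.28), at an edgeR adjusted p of 0.0386. CMPK2, the mitochondrial kinase encoded beside it on the opposite strand, had 1.08, 2.22 and 1.06 CPM against 1.95, 1.40 and 2.80 CPM, so that its groups overlap, and its log2 fold change was −0.50 (edgeR adjusted p = 0.546). BST2, or tetherin, holds budding virus particles at the cell surface. It had 11.3, 10.3 and 13.3 CPM in the HHEX shRNA libraries, against 26.3, 37.9 and 32.0 CPM in the controls. BST2 fell by 1.46 on the log2 scale (SE 0.19), at an edgeR adjusted p of 0.0356, with no overlap between the groups and with KD1 and KD2, rather than KD3, the lowest. Without KD1, the log2 fold changes of TRIM22, RSAD2 and BST2 were −3.76, −2.24 and −1.44, and none passed (edgeR adjusted p = 0.195, 0.123 and 0.156).

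**Figure D2:**
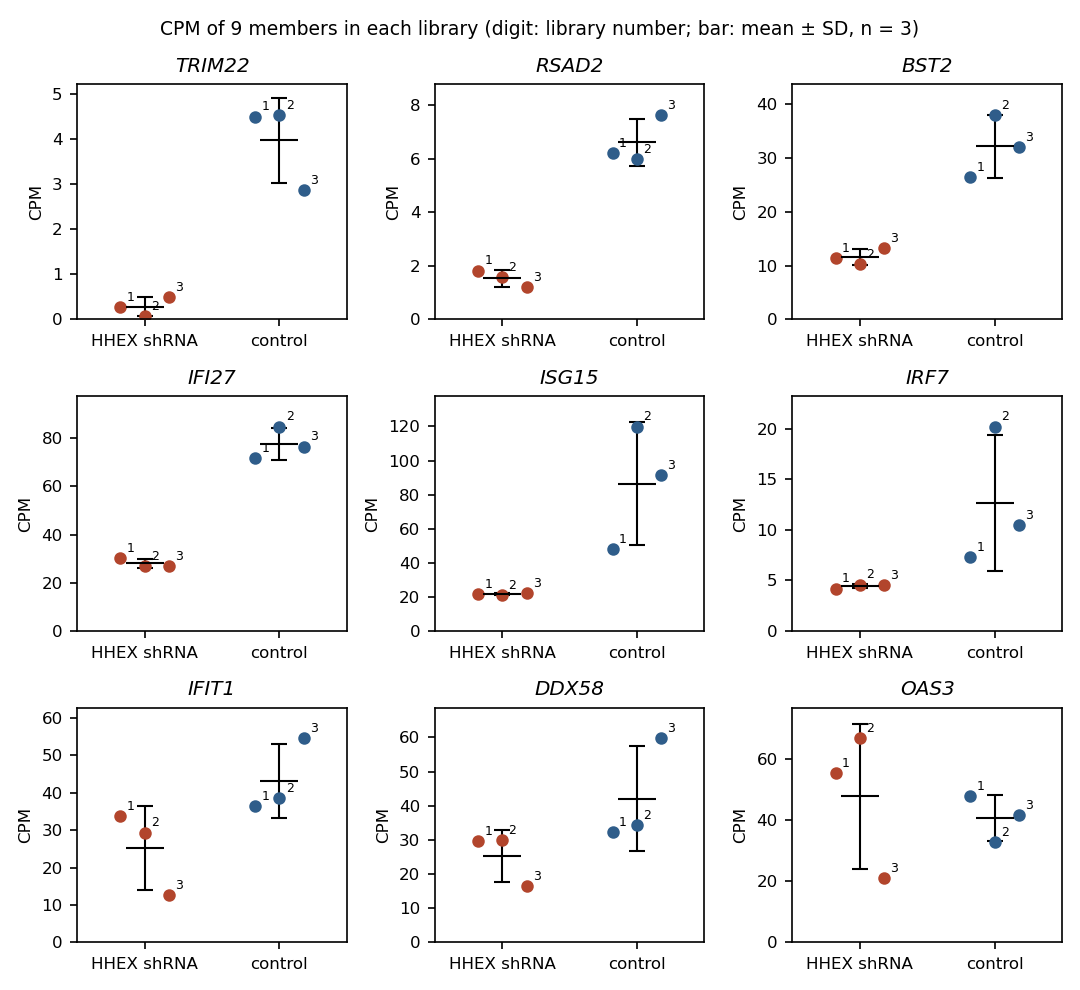
Panels plot CPM on linear axes from 0 for 9 genes, HHEX shRNA libraries left and control libraries right, with the library number beside each point and bars for the mean ± SD (n = 3 per group). TRIM22, RSAD2, BST2 and IFI27 are low in every HHEX shRNA library, ISG15 and IRF7 spread widely among the controls, and KD3 alone is low for OAS3.

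The oligoadenylate synthetases, which make the second messenger that activates RNase L, differed among themselves. OASL, the member that lacks this enzyme activity, had 11.9, 12.4 and 11.7 CPM in the HHEX shRNA libraries, against 23.5, 26.0 and 40.2 CPM in the controls, with a log2 fold change of −1.32 (SE 0.22), at an edgeR adjusted p of 0.061. OAS2 had 9.86, 8.44 and 4.80 CPM against 20.2, 17.6 and 16.0 CPM, with a log2 fold change of −1.22 (SE 0.27), at an edgeR adjusted p of 0.0986. In both genes the groups are apart, yet neither passed the test. OAS1 had 9.45, 10.7 and 3.88 CPM against 11.4, 12.7 and 13.8 CPM, where KD1 and KD2 lie just under the controls and KD3 far under them. OAS3 had 55.6, 67.0 and 21.1 CPM against 48, 32.8 and 41.7 CPM, so that KD1 and KD2 lie above every control and KD3 below every control. Its log2 fold change was 0.23 (SE 0.39), at an edgeR adjusted p of 0.761, and without KD3 it was 0.61 and passed as higher (edgeR adjusted p = 0.0108). OAS1, OAS2 and OAS3 lie next to each other on chromosome 12, between 112906777 and 113011723 on the plus strand.

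The IFIT proteins form a family that binds viral RNA whose cap differs from that of the host. IFIT1 had 33.7, 29.3 and 12.6 CPM in the HHEX shRNA libraries, against 36.4, 38.6 and 54.6 CPM in the controls, with a log2 fold change of −0.78 (SE 0.34), at an edgeR adjusted p of 0.25. IFIT2 had 25.2, 28.4 and 11.5 CPM against 24.3, 21.2 and 44.3 CPM, and IFIT3 had 48.1, 49.0 and 22.7 CPM against 43.8, 37.8 and 72.1 CPM. In all 3 of these neighbours on chromosome 10, KD3 was the lowest library and control3 the highest, and KD1 and KD2 lay near control1 and control2. IFIT5 had 55.9, 52.4 and 41.0 CPM against 40.9, 42.5 and 43.8 CPM, a log2 fold change of 0.23 (edgeR adjusted p = 0.39). Without KD3 it passed as higher, at 0.38.

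The interferon-induced transmembrane proteins stop enveloped viruses from fusing. IFITM3 had 335, 282 and 289 CPM in the HHEX shRNA libraries, against 486, 569 and 425 CPM in the controls, a log2 fold change of −0.71 (SE 0.16), at an edgeR adjusted p of 0.0987. IFITM1 had 7.22, 8.23 and 4.31 CPM against 14.1, 17.7 and 11.2 CPM, a log2 fold change of −1.12 (SE 0.28), at an edgeR adjusted p of 0.114. Neither gene's groups overlap, and neither passed. IFITM2 had 135, 115 and 90.0 CPM against 137, 149 and 89.5 CPM, with overlapping groups. The 3 genes are closely similar neighbours on chromosome 11, and IFITM1 shares 32.5% and IFITM2 22.7% of its annotated exonic bases with another gene, so the split of reads between them is uncertain.

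MX1 and MX2, dynamin-like GTPases that trap viral nucleocapsids, were low in both groups, and MX1 was even within each group. MX1 had 2.57, 2.86 and 2.54 CPM in the HHEX shRNA libraries, against 6.29, 6.52 and 6.65 CPM in the controls, a log2 fold change of −1.29 (SE 0.23), at an edgeR adjusted p of 0.0768. MX2 had 2.70, 3.22 and 3.74 CPM against 7.64, 6.72 and 5.74 CPM, a log2 fold change of −1.05 (SE 0.25), at an edgeR adjusted p of 0.105. Every HHEX shRNA value of both genes lies below every control value. TRIM5, which recognises retroviral capsids, had 29.8, 31.4 and 46.6 CPM against 59.8, 52.0 and 47.7 CPM, where KD3 lies just under the lowest control. ISG20, an exonuclease of single-stranded RNA, had 30.3, 31.1 and 27.2 CPM against 36.0, 37.4 and 28.2 CPM, with overlapping groups. SAMD9 and SAMD9L, neighbours on chromosome 7 that restrict poxviruses, had log2 fold changes of 0.25 and −0.33. SAMD9 reached 84.3 CPM in KD2, above its highest control value of 53.1 CPM, and was at 26.9 CPM in KD3, below its lowest control value of 34.8 CPM.

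The RNA sensors are cytosolic helicases that recognise viral RNA, and RIG-I and MDA5 start interferon synthesis through MAVS. All 3 had negative log2 fold changes with a median of −0.69, and 0 were called by edgeR. An unadjusted p under 0.05 was reached by 2, beside 20.6% of all genes tested, and DESeq2 called 1, beside 6.04% of all genes. DDX58, which encodes RIG-I, had 29.6, 29.8 and 16.5 CPM in the HHEX shRNA libraries, against 32.3, 34.2 and 59.8 CPM in the controls. KD1 and KD2 lie just under 2 of the controls, while KD3 and control3 lie farthest from the rest. Its log2 fold change was −0.73 (SE 0.30), at an edgeR adjusted p of 0.22. IFIH1, which encodes MDA5, the sensor of long double-stranded RNA, had 14.3, 14.0 and 12 CPM against 18.3, 20.02 and 26.8 CPM, with no overlap, a log2 fold change of −0.69 (SE 0.19) and an edgeR adjusted p of 0.128. DHX58, or LGP2, which lacks the signalling domains of the other two, had 1.89, 2.15 and 0.918 CPM against 1.87, 1.53 and 2.15 CPM. Its groups overlap in KD1 and KD2, and its log2 fold change was −0.16 (SE 0.41), at an edgeR adjusted p of 0.846. In all 3 sensors KD3 was the lowest of the 6 libraries and control3 was the highest control.

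Of the 4 STAT and IRF factors, which carry the signal to the promoters, 3 were tested and 0 were called by edgeR. An unadjusted p under 0.05 was reached by 2 of them, beside 20.6% of all genes tested, and DESeq2 called 1, beside 6.04%. IRF7, which drives interferon alpha genes and is itself induced by interferon, had 4.19, 4.58 and 4.52 CPM in the HHEX shRNA libraries, against 7.34, 20.2 and 10.5 CPM in the controls. The HHEX shRNA values are nearly equal, while the controls span more than 1 log2 unit. IRF7 had a log2 fold change of −1.52 (SE 0.36), at an edgeR adjusted p of 0.105. STAT2, a subunit of ISGF3, had 38.4, 41.3 and 33.9 CPM against 54.5, 50.9 and 49.0 CPM, with no overlap, a log2 fold change of −0.44 (SE 0.13) and an edgeR adjusted p of 0.139. IRF1, an early factor induced by interferon gamma, had 8.51, 6.44 and 7.48 CPM against 6.51, 11.4 and 9.26 CPM, so that its groups overlap (log2 fold change −0.28, SE 0.25, edgeR adjusted p = 0.547). IRF9, the DNA-binding subunit of ISGF3, had 5, 10 and 9 counts against 13, 2 and 2 counts and did not pass the filter on low counts. It shares 48.4% of its annotated exonic bases with another gene, so that its counts may be incomplete. Differences between the groups of effectors, sensors and factors in these medians were not tested.

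ISG15 is a ubiquitin-like protein that is joined to viral and cellular proteins, and 5 members work with it. ISG15 itself had 21.4, 20.9 and 22.2 CPM in the HHEX shRNA libraries, against 48.1, 120 and 91.2 CPM in the controls. The HHEX shRNA libraries agree closely, and even the lowest control is far above them. Its log2 fold change was −2.01 (SE 0.30, 95% interval −2.69 to −1.32, edgeR adjusted p = 0.0512), just above the threshold, and it passed without a scaling factor (edgeR adjusted p = 0.0471). Without control1, which is its lowest control, ISG15 was the 1 gene of the whole table that edgeR called. UBA7, UBE2L6 and HERC5 are the enzymes that join ISG15 to its targets, and their log2 fold changes were −0.24, −0.13 and −0.44, with edgeR adjusted p of 0.681, 0.589 and 0.183. HERC5 had 44.0, 43.4 and 35.9 CPM against 49.3, 51.9 and 65.9 CPM, with no overlap. USP18, which removes ISG15 and damps the interferon receptor, had 1.35, 1.07 and 0.777 CPM against 1.57, 1.40 and 2.67 CPM, a log2 fold change of −0.81 (edgeR adjusted p = 0.305). HERC6, a relative of HERC5, had 11.3, 10.5 and 9.88 CPM against 15.8, 15.2 and 17.0 CPM, a log2 fold change of −0.60 (SE 0.16), at an edgeR adjusted p of 0.126.

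The 5 ubiquitin and ADP-ribose ligases lay nearest to the controls. Their log2 fold changes ran from −0.32 in TRIM25, the ligase that activates RIG-I, to 0.07 in DTX3L. In 0 of the 5 did the groups not overlap, beside 24.9% of all genes tested, and 5 genes are too few to compare with that share. TRIM25 had 120, 134 and 187 CPM in the HHEX shRNA libraries, against 206, 190 and 153 CPM in the controls, so that KD1 and KD2 were below every control and KD3 was not. PARP9 and DTX3L, partners in one complex whose genes start next to each other on opposite strands of chromosome 3, had log2 fold changes of 0.01 and 0.07. PARP14 had −0.16 and TRIM21, an intracellular receptor of antibody-coated virus, −0.14.

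The remaining 11 members have other or less settled roles. Of these, 10 were tested, all 10 had a negative log2 fold change with a median of −0.78, 8 lay below every control in every HHEX shRNA library (beside 13.3% of all genes tested), and 1 was called lower (beside 0.077%). That was IFI27, a mitochondrial protein that serves as a blood marker of viral infection. IFI27 had 30.2, 27.0 and 26.8 CPM in the HHEX shRNA libraries, against 71.7, 84.8 and 76.5 CPM in the controls. Both groups are tight, at 28.0 ± 1.93 and 77.7 ± 6.61 CPM (SD, n = 3 each), and far apart. IFI27 fell by 1.47 on the log2 scale (SE 0.13), at an edgeR adjusted p of 0.0164, and without KD1 its value was −1.53 (edgeR adjusted p = 0.0702).

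IFI6, which protects cells from flavivirus replication, had 19.99, 16.2 and 10.8 CPM in the HHEX shRNA libraries, against 35.6, 81.2 and 40.1 CPM in the controls. The controls are spread by control2, and the log2 fold change of −1.74 (SE 0.36) had an edgeR adjusted p of 0.0966. IFI35, which binds NMI, had 13, 12.2 and 12 CPM against 23.9, 23.4 and 21.3 CPM, a log2 fold change of −0.88 (SE 0.15), at an edgeR adjusted p of 0.0662. IFI44L had 15.1, 15.6 and 16.9 CPM against 24.4, 30.5 and 31.6 CPM, a log2 fold change of −0.86 (SE 0.16), at an edgeR adjusted p of 0.0768. IFI35 is even within groups. In both IFI35 and IFI44L the groups do not overlap, and both genes lie near the threshold without passing it. IFI44, a neighbour of IFI44L, had 24.2, 22.9 and 15.8 CPM against 24.6, 30.1 and 47.6 CPM, where KD1 nearly meets control1. XAF1, an antagonist of the apoptosis inhibitor XIAP, had 0.743, 1.07 and 1.84 CPM against 2.55, 2.53 and 3.91 CPM, a log2 fold change of −1.30 (SE 0.42), at an edgeR adjusted p of 0.155. It shares 38.3% of its annotated exonic bases with another gene. LGALS3BP, a secreted glycoprotein, had 555, 509 and 493 CPM against 730, 754 and 791 CPM, a log2 fold change of −0.55 (SE 0.13), at an edgeR adjusted p of 0.11. PLSCR1, a phospholipid scramblase, SP100 and SP110, both nuclear body proteins, had log2 fold changes of −0.26, −0.20 and −0.05. EPSTI1 had 0, 2 and 0 counts against 0, 0 and 5 counts and was not tested.

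**Figure D3:**
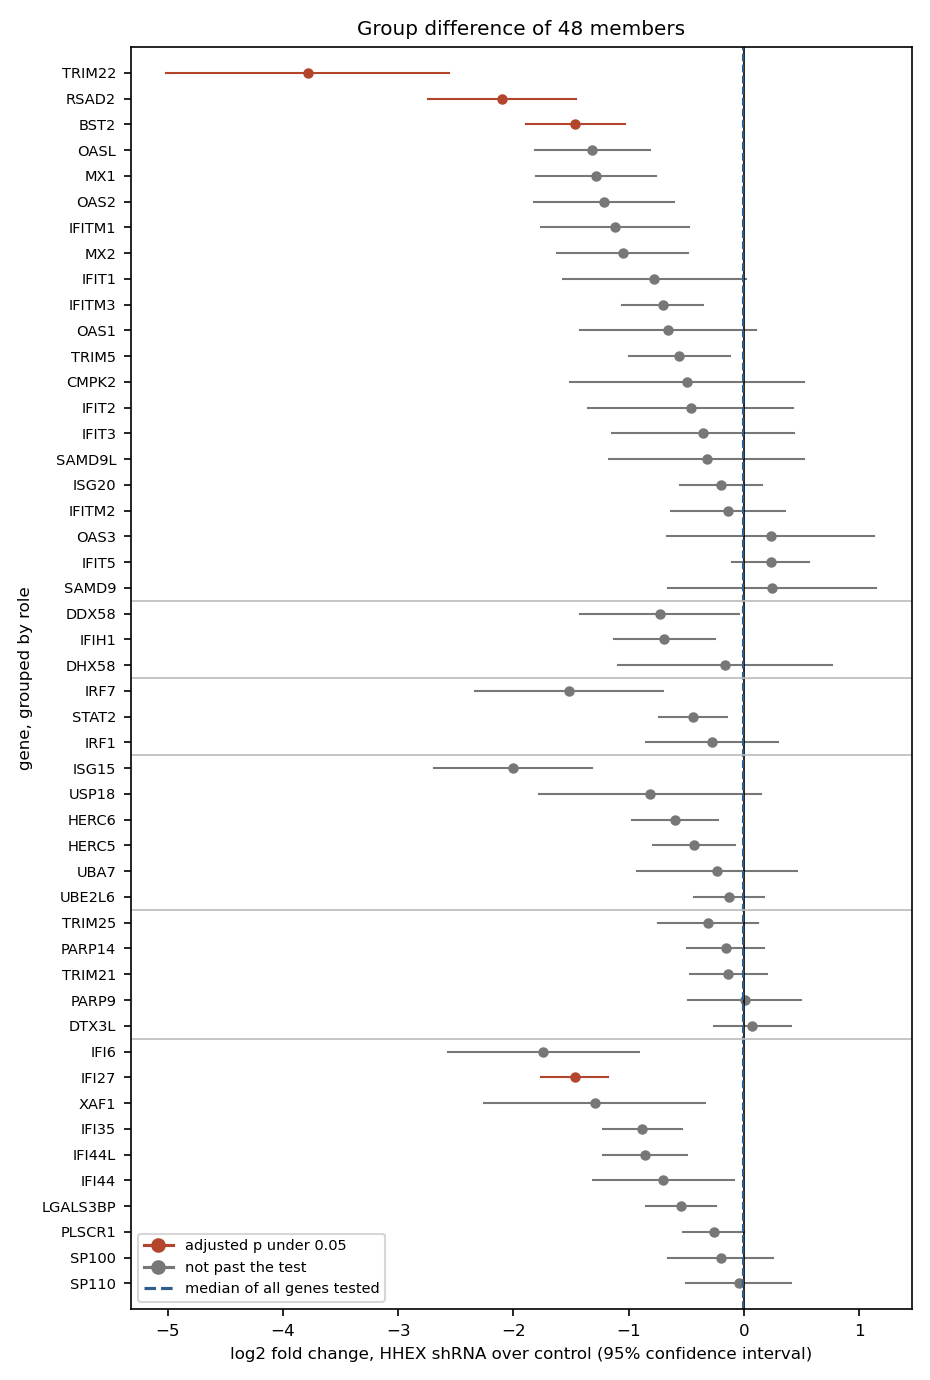
Points give the log2 fold change of HHEX shRNA over control for 48 genes with the 95% confidence interval, grouped from the top as effectors, RNA sensors, STAT and IRF factors, ISG15 pathway, ligases and other genes. Red marks the 4 genes past the edgeR test, grey the others. Most points lie left of the dashed line, the median of all genes tested, at −0.01.

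The 3 HHEX shRNA libraries did not lie equally low. The member median of the log2 difference from the control mean lay at −0.44, −0.45 and −0.82 for KD1, KD2 and KD3, and over all genes tested at −0.02, −0.02 and −0.01. The control medians of the members were −0.03, −0.02 and 0.08 for control1, control2 and control3. More than 1 log2 unit below the control mean lay 11 of 48 members in KD1, 12 in KD2 and 20 in KD3, where 8.49%, 8.46% and 3.63% of all genes tested did so. In control1, control2 and control3 the counts were 1 (ISG15), 0 and 0, where 2.35%, 1.78% and 1.03% of all genes did so. KD3, the HHEX shRNA library nearest to the controls over all genes, is thus the one in which the members were lowest. KD3 was the lowest of all 6 libraries for 32 of the 48 members, beside 19.3% of all genes tested. Listed in the same order, the median of the effectors was −0.55, −0.53 and −1.12, and that of the sensors −0.45, −0.44 and −0.90. For the STAT and IRF factors the medians were −0.42, −0.45 and −0.60, and for the 10 other genes −0.63, −0.72 and −0.70, which lie closer together. With 1 library each, these values carry no test.

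In 11 members only KD3 lay below every control, while KD1 and KD2 both reached the control range or went above it. Of all genes tested, 13.5% did so. They were IFIT2, IFIT3, OAS3, ISG20, SAMD9, DHX58, UBA7, TRIM21, PARP9, DTX3L and SP110. In 2 members, TRIM25 and SP100, KD1 and KD2 lay below every control and KD3 did not, where 16.6% of all genes tested did so. The summed level of the 50 members was 2198, 2142 and 1911 CPM in KD1, KD2 and KD3, against 2872, 3085 and 2954 CPM in control1, control2 and control3. KD3 is also the library with the lowest sum of fibroblast and endothelial markers, and their part in this was not tested.

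**Figure D4:**
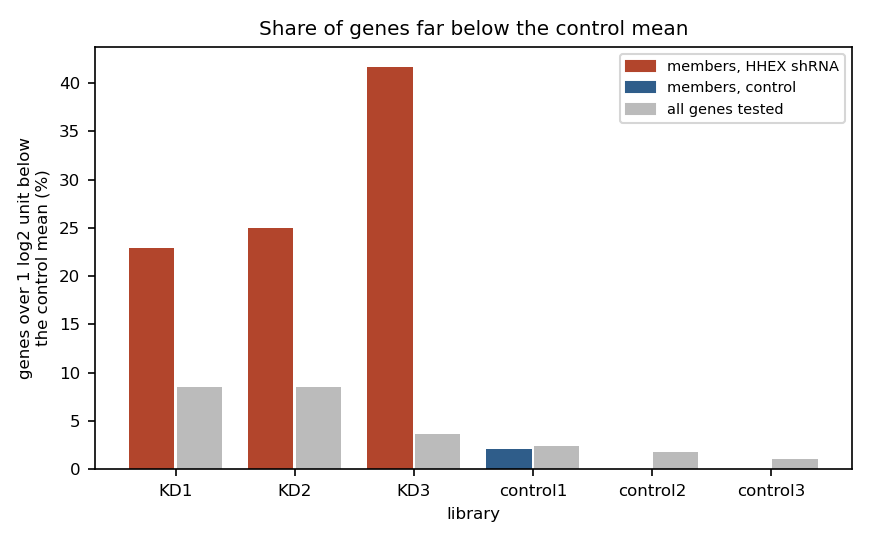
Bars give the percent of genes more than 1 log2 unit below the control mean in each library, HHEX shRNA libraries left and controls right, for the 48 tested members and for all 14280 genes tested. KD3 holds 41.7% of members against 3.63% of all genes, and control2 and control3 hold 0% of members.

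The spread among the controls was near that of other genes for most members. The range of the 3 control libraries had a median of 0.42 log2 units over the members and 0.35 over all genes tested. It was over 1 log2 unit in 4 of 48 members (8.33%), namely IFIT2, IRF7, ISG15 and IFI6, and in 9.10% of all genes tested. ISG15, IRF7 and IFI6 were highest in control2, whereas IFIT2 was highest in control3. Of the 48 members, 24 were highest in control3 (beside 31.9% of all genes), 14 in control2 and 10 in control1. Those highest in control3 include IFIT1, IFIT2, IFIT3, IFIT5, all 3 RNA sensors, RSAD2, OASL, HERC5, USP18 and XAF1. Those highest in control2 include the 3 IFITM genes, BST2, TRIM22, IFI27, IFI6, ISG15 and IRF7. Within the HHEX shRNA libraries the range had a median of 0.57 log2 units, beside 0.50 over all genes, and was over 1 in 12 of 48 members (beside 19.5% of all genes).

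Levels can be compared between genes per length, for which CPM were divided by the kilobases of annotated exonic sequence. IFITM3 had the highest level, at 224 ± 21.3 CPM per kb in the HHEX shRNA libraries and 366 ± 53.6 CPM per kb in the controls (SD, n = 3 each). LGALS3BP followed at 145 ± 8.92 and 212 ± 8.57 CPM per kb, and ISG15 at 22.9 ± 0.723 and 91.8 ± 38.4 CPM per kb. Next by control mean came IFITM2, at 73.6 ± 14.8 and 81.2 ± 20.5 CPM per kb, and IFI6, at 18.1 ± 5.33 and 60.5 ± 29 CPM per kb. The control values of IFITM3, LGALS3BP and ISG15 do not overlap each other, whereas those of ISG15, IFITM2 and IFI6 do, so that the order of these 3 is not fixed. In the control mean, 5 members lay over 50 CPM per kb, 14 from 10 to 50, 21 from 1 to 10, and 10 at 1 or less. The called genes stand at different places in this order. BST2 had 10.4 ± 1.35 and 28.7 ± 5.16 CPM per kb and IFI27 6.76 ± 0.466 and 18.7 ± 1.59, while RSAD2 had 0.317 ± 0.0648 and 1.37 ± 0.184 and TRIM22 0.0463 ± 0.0351 and 0.658 ± 0.157 CPM per kb.

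A further 90 genes of the pathway were looked at, of which 72 were tested and 0 were called by edgeR or limma voom. An unadjusted p under 0.05 in edgeR was reached by 17, beside 20.6% of all genes tested. DESeq2 called 4 lower and 1 higher, where it called 2.86% of all genes tested as lower and 3.18% as higher. The median log2 fold change of the 72 was 0.09, with 30 negative and 42 positive, beside 51.4% negative over all genes tested. Of 10 interferon ligands, 4 were at 0 in every library and only IFNE, an epithelial type I interferon, was tested (log2 fold change 0.58, edgeR adjusted p = 0.661). IFNB1 had 0, 1 and 0 counts in the HHEX shRNA libraries, against 0, 0 and 5 counts in the controls, and IFNL1 had 0, 3 and 3 counts against 7, 6 and 10 counts. At such counts no difference was tested. Of the receptors and kinases, 7 were tested, with JAK2 at a log2 fold change of 0.59 (edgeR adjusted p = 0.239) and IFNGR1 at −0.39 (edgeR adjusted p = 0.286). IFNAR2 had counts in 1 library alone and shares 83.2% of its annotated exonic bases with a readthrough gene, so that its level cannot be read here.

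SOCS3, an inhibitor of JAK signalling, had 15.3, 15.5 and 14.8 CPM in the HHEX shRNA libraries, against 8.61, 8.71 and 9.39 CPM in the controls, with no overlap. Its log2 fold change was 0.77 (SE 0.16), at an edgeR adjusted p of 0.0966, and PTPN1, a phosphatase of JAK2 and TYK2, had 0.51 (edgeR adjusted p = 0.134). Of the sensing pathway upstream of interferon, TMEM173, which encodes STING, had 38.9, 37.1 and 40.4 CPM against 56.5, 58.7 and 56.6 CPM, a log2 fold change of −0.56 (SE 0.12), at an edgeR adjusted p of 0.0878. NFKB1 had 0.31 (edgeR adjusted p = 0.191). STAT3 and IRF2BP1 had log2 fold changes of 0.31 and −0.32 (edgeR adjusted p = 0.33 and 0.385). Of 39 further interferon-stimulated genes tested, 21 had a negative and 18 a positive log2 fold change, with a median of −0.07. The lowest p among them belonged to CXCL11 and CXCL10, chemokines of T cells, at −1.66 and −1.46 (edgeR adjusted p = 0.105 and 0.113).

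Several members overlap other genes on the annotation, and no source used here states whether the counting kept strand. Of the 50, 20 share exonic bases with another gene, up to 48.4% in IRF9. RSAD2 shares 0.290% with CMPK2 on the opposite strand, TRIM22 shares 10.7% with OR56B1, and ISG15 3.83% with a pseudogene, both of which had 0 counts in all 6 libraries. BST2 and IFI27 share none. TRIM22 lies on the plus strand of chromosome 11 at 5689689 to 5737089, inside the span of TRIM5 on the minus strand at 5663557 to 5938619. RSAD2 lies at 6865806 to 6898239 on chromosome 2, BST2 at 17402939 to 17405648 on chromosome 19, IFI27 at 94104836 to 94116698 on chromosome 14 and ISG15 at 1001138 to 1014540 on chromosome 1, in GRCh38 as in the table.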

How the data were processed

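RNA was extracted with Trizol and made into mRNA libraries with TIANSeq kits, per the labels' protocols. No source used here gives the aligner, the counting tool or its use of strand. The authors deposited raw counts per gene for 6 libraries in 1 table of 59733 rows. A further 6 columns of per-library values in another unit were not used. The coordinates of 58601 named genes in the table equal GENCODE 29 on GRCh38. Columns name the group of a library but not the replicate label of its title, and were mapped to groups only. The 998 rows without a gene name (0.239% to 0.298% of the counts) were left out of totals and tests.

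The counts of 58735 named genes were tested in R 4.3.3 with edgeR 4.0.16 (filterByExpr by group, TMM scaling, robust quasi-likelihood fit), which kept 14280 genes. The Benjamini-Hochberg adjustment ran over all of these at a threshold of 0.05, and standard errors were derived from the F statistic. CPM use TMM-scaled totals, and log2 CPM a prior count of 2. A floor of 3 counts corresponds to 0.196 to 0.225 CPM, and intervals cover counting error only. Between libraries a chi-square per gene averaged 7.13 for KD1 and KD2 and 10.8 to 16.8 for pairs of controls, above sampling noise, so no pair was taken for repeat deposits of 1 library. This does not show that libraries of a group are independent replicates, and n = 3 counts libraries. DESeq2 1.42.0, limma 3.58.1, other scalings and filters, and each library left out were alternatives. Promoter letters come from RefSeq on GRCh38.p14.

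The members, the role lists and the other lists were chosen with earlier results of these data known. The rule for named genes took all members, with full statistics for those past the test and up to 3 per role list with the smallest p, and of the further pathway lists those past the test and up to 2 with the smallest p. IFNB1, IFNL1, IFNAR2 and values of further members were named after they were seen. Some genes of the lists are not reported here by name.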

Additional observations from a re-analysis of the deposited data

How the results depend on the processing

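With DESeq2, 862 of 14280 genes tested (6.04%), 17 members and 5 further pathway genes were called, beside 26 (0.182%), 4 and 0 in edgeR. With no filter on low counts, edgeR called 1359 of 28322 genes tested, 21 members and 4 pathway genes. Leaving out 1 library at a time gave 0 to 4675 genes, 0 to 25 members and 0 to 24 pathway genes. The upper ends come from leaving out KD3, where edgeR called 31.6% of all genes tested. In that fit it called 25 of 49 members and 24 of 73 pathway genes. No member was called by edgeR once KD1, KD2, control2 or control3 was left out, and 1, ISG15, once control1 was. The cause was not tested. The median log2 fold change of the members stayed negative under each of these, at −0.62 with upper-quartile scaling (which moves the median of all genes to −0.08) and −0.68 to −0.45 without 1 library, over the 48 members tested in the full comparison (over the 49 tested without KD3 it was −0.43). Over 14 alternatives the log2 fold change ran from −2.24 to −1.93 in RSAD2, −1.56 to −1.31 in BST2, −4.42 to −3.34 in TRIM22 and −1.53 to −1.38 in IFI27, with edgeR's or the other tool's adjusted p reaching 0.220, 0.208, 0.252 and 0.158. They were called in 9, 9, 7 and 9 of the 14.

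The sign of PARP9 turned with upper-quartile scaling (−0.06), no scaling factor (−0.036) and limma voom (−0.037). Leaving out 1 library turned the sign of 8 uncalled members, whose values ran from −0.34 to 0.023 in IFITM2, −0.085 to 0.61 in OAS3, −0.28 to 0.59 in SAMD9, −0.39 to 0.15 in DHX58, −0.44 to 0.070 in UBA7, −0.13 to 0.25 in PARP9, −0.024 to 0.21 in DTX3L and −0.17 to 0.15 in SP110. With C required after the first GAAA, 47.5% of the 40 promoters held a match, beside 0.941% of all genes. The libraries of each group are 3, and TRIM22, RSAD2, XAF1, CMPK2, USP18 and DHX58 rest on few counts. No paired analysis was possible because the columns do not carry the replicate labels of the titles.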
